A study of Aspergillus oryzae with 20 samples.

Results

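The genes described here are brlA (AO090005001041), ayg1 (AO090005000332) and pksP (AO090102000545, also called wA) of Aspergillus oryzae, the filamentous fungus used to make koji. They are 3 of the 12074 genes listed for each library, were taken by these identifiers as a conidiation regulator and a pair of spore pigment genes, and bear these symbols in the RefSeq gene table of assembly ASM18445v3. Conidia are the asexual spores of the fungus, formed on stalks called conidiophores. In Aspergillus species, brlA encodes a zinc-finger transcription factor that switches on conidiophore development. The polyketide synthase encoded by pksP makes a yellow naphthopyrone from which conidial pigment is built. In Aspergillus fumigatus, ayg1 encodes a hydrolase that shortens the product of that synthase on the way to melanin.

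The study sequenced messenger RNA of 4 strains of the RIB40 background grown on wheat bran, with 5 libraries per strain and 20 in all. All 4 genotypes, the control included, are labelled del-pyrG with pyrG+ and ligD+: the deletion control keeps the genes under study, ΔadmA and ΔadmB each lack 1 gene, and ΔadmAΔadmB lacks both. The products of admA and admB are metalloproteases anchored in membranes, of the type called ADAM. Each culture was 76.5 g of moistened bran in a 1 L flask, seeded with conidia and kept at 30 °C for 72 h, and each library was made with a TruSeq kit from 4 µg of total RNA. Whether the 5 libraries per strain represent separate flasks is not stated, so p-values reflect the spread between libraries, which may be technical. RNA came from whole cultures, so fewer conidiophores and less RNA per conidiophore cannot be told apart.

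The deposited values are RPKM, reads scaled to the length of the gene and to the mapped reads of the library, and the number of reads behind a library is unknown. RPKM summed to between 3974009 and 5401733 per library, and between 655 and 1260 genes were at 0. The targeted gene admA was above 0 in 1 of the 10 libraries of strains lacking it, at 0.092 RPKM, and in 9 of the 10 others, at up to 14.24 RPKM. admB is not paired with a symbol in the table and was not analysed here. The ratios of low RPKM values between libraries divided the libraries into a set of 12 and a set of 8, with 2 to 4 and 1 to 3 libraries of each strain. Within a set most of these ratios lay on a common step, and between sets a smaller share did. Relative depth differed by up to 2.504 times within the set of 12 and by up to 1.692 times within the set of 8. Whether depth differed between the sets was not tested. What these sets stem from is not stated in the labels or headers.

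brlA was at a few RPKM or less in most libraries and between 10.4 and 90.2 RPKM in 1 or 2 libraries of each strain. In the deletion control, replicates 1 to 5 were at 46.7, 3.69, 14.5, 3.19 and 1.60 RPKM. In ΔadmA the corresponding values were 90.2, 3.95, 3.14, 2.02 and 2.86 RPKM. Each of these strains thus held libraries with high brlA beside libraries of the same strain with low brlA. In ΔadmB the level of brlA was 29.7, 1.36, 1.08, 0.476 and 0.931 RPKM. In ΔadmAΔadmB it was 10.4, 1.62, 34.6, 1.17 and 2.33 RPKM. The 4 strains overlapped, and the highest library of all was ΔadmA replicate 1, at 189 times the level of the lowest, ΔadmB replicate 4.

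In the order of their values, 14 libraries lay at or below 3.95 RPKM and 6 at or above 10.4 RPKM. The 6 were control replicates 1 and 3, ΔadmA replicate 1, ΔadmB replicate 1 and ΔadmAΔadmB replicates 1 and 3, so that every strain had 1 or 2 of them. All 4 libraries numbered replicate 1 and 2 of the 4 numbered replicate 3 were among the 6, and none of those numbered 2, 4 or 5 was. The labels do not say what, if anything, libraries of the same number share. Of the 6, 4 were in the library set of 12 and 2 in the set of 8. Strain means were 13.9 ± 19.02 RPKM for the control, 20.4 ± 39.0 for ΔadmA, 6.71 ± 12.8 for ΔadmB and 10.03 ± 14.2 for ΔadmAΔadmB (SD, n = 5), and the SD exceeded the mean each time. The medians, at 3.69, 3.14, 1.08 and 2.33 RPKM, were far below the means, as 1 or 2 libraries carried most of each sum.

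The brlA values of all 20 libraries were whole multiples of the step that 1 read makes in that library, between 0.0475 and 0.119 RPKM, to within 0.001 read. On that scale brlA rested on 983, 46, 172, 32 and 17 reads in control replicates 1 to 5 and on 1119, 67, 40, 26 and 28 reads in those of ΔadmA. The corresponding ΔadmB libraries held 443, 17, 19, 4 and 15 reads, and the ΔadmAΔadmB libraries 117, 17, 466, 14 and 26. The 6 libraries with high brlA thus rested on 117 reads or more, and the lowest value, in ΔadmB replicate 4, on 4 reads, with an exact 95% Poisson interval of 1.09 to 10.2 reads that covers counting error only. The steps are the largest that the values share, so the true counts may be a whole multiple of these, and the depth of ΔadmB replicate 4 may be off by a factor of 2. No such step was found for ayg1 or pksP. That search tried only small read numbers and left out values of many steps, so it does not show that their values are not whole reads.

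**Figure D1:**
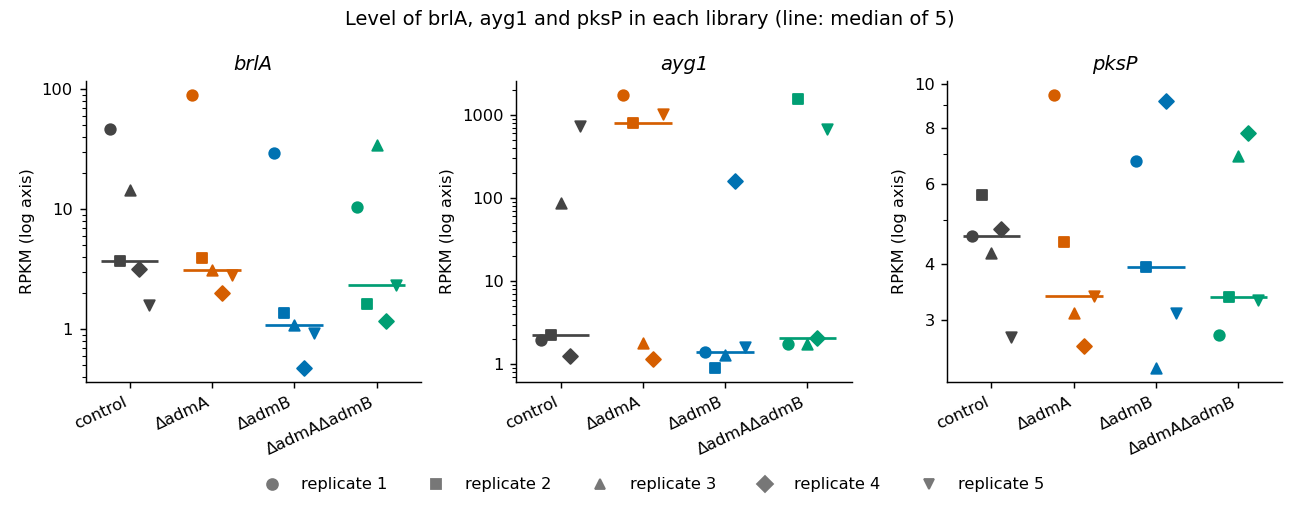
RPKM of brlA, ayg1 and pksP (log axes, a different range in each panel) in each of the 20 libraries, grouped by strain, with 1 symbol per replicate number and a line at the median of 5. ayg1 falls into a low and a high band in every strain, brlA has 1 or 2 high libraries per strain, and pksP stays between 2.35 and 9.49 RPKM.

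ayg1 was either at 2.24 RPKM or below, or at 87.1 RPKM or above. In control replicates 1 to 5 it was at 1.95, 2.24, 87.1, 1.25 and 738 RPKM. In ΔadmA it was at 1745, 799, 1.79, 1.16 and 1018 RPKM. High and low libraries thus stood side by side within both strains. In ΔadmB the level of ayg1 was 1.39, 0.904, 1.31, 162 and 1.60 RPKM. In ΔadmAΔadmB it was 1.76, 1528, 1.76, 2.07 and 668 RPKM. The groups overlapped, and the high band held 2 control, 3 ΔadmA, 1 ΔadmB and 2 ΔadmAΔadmB libraries.

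Across the 20 libraries 12 formed the low band of ayg1, from 0.904 to 2.24 RPKM, and 8 the high band, from 87.1 to 1745 RPKM. The gap between the bands took 48.4% of the whole range on the log2 scale, and the highest library was at 1930 times the level of the lowest. The high band held libraries of every replicate number, 1, 2, 1, 1 and 3 for numbers 1 to 5, and 5 of the 12 and 3 of the 8 libraries of the library sets. Mean ayg1 was 166 ± 322 RPKM for the control, 713 ± 738 for ΔadmA, 33.5 ± 71.9 for ΔadmB and 440.3 ± 673 for ΔadmAΔadmB (SD, n = 5). Only in ΔadmA did the high band hold the median, at 799 RPKM, against 2.24, 1.39 and 2.07 RPKM in the control, ΔadmB and ΔadmAΔadmB.

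pksP was low and even, between 2.35 and 9.49 RPKM in every library, a range of 4.04 times. The control libraries were at 4.62, 5.67, 4.22, 4.77 and 2.76 RPKM in replicates 1 to 5. Those of ΔadmA were at 9.49, 4.46, 3.12, 2.63 and 3.39 RPKM. Replicate 1 of ΔadmA was highest for all 3 genes. The ΔadmB libraries held pksP at 6.76, 3.93, 2.35, 9.20 and 3.12 RPKM. The ΔadmAΔadmB libraries held it at 2.78, 3.38, 6.94, 7.80 and 3.32 RPKM. The strains overlapped throughout, with means of 4.41 ± 1.07, 4.62 ± 2.81, 5.07 ± 2.85 and 4.85 ± 2.34 RPKM (SD, n = 5) in the control, ΔadmA, ΔadmB and ΔadmAΔadmB. RPKM is scaled to gene length, so levels can be set side by side between genes: ayg1 was above pksP in the 8 libraries of its high band and in no other, and brlA was above pksP in 7 libraries.

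High ayg1 was no more frequent in libraries with high brlA than in the others. With limits of 10 RPKM for brlA and 50 RPKM for ayg1, both chosen after their values were seen, ayg1 was high in 2 of the 6 libraries with high brlA and in 6 of the other 14. The 2 libraries high for both were control replicate 3 and ΔadmA replicate 1. In 4 libraries brlA alone was high, in 6 ayg1 alone was high, and in 8 neither was. Control replicate 1 and ΔadmAΔadmB replicate 3 show the first kind, with brlA at 46.7 and 34.6 RPKM and ayg1 at 1.95 and 1.76 RPKM. ΔadmAΔadmB replicate 2 shows the second, with ayg1 at 1528 RPKM and brlA at 1.62 RPKM. ΔadmB replicate 4 had the lowest brlA of all, 0.476 RPKM, and was the only library of its strain in the high band of ayg1. Over the 8 libraries of that band brlA ran from 0.476 to 90.2 RPKM, and over the 12 others from 0.931 to 46.7 RPKM.

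Because the ayg1 values form separate bands, its correlations with brlA and pksP were tested only within each band, on the log2(RPKM + 1) scale. In the 12 low libraries Pearson's r of brlA and ayg1 was 0.298 (permutation p = 0.344, adjusted p = 0.574) and Spearman's rho 0.322 (permutation p = 0.307, adjusted p = 0.511). In the 8 high libraries r was 0.164 (exact permutation p = 0.81, adjusted p = 0.81) and rho 0.286 (exact permutation p = 0.501, adjusted p = 0.626). All p-values of correlations are two-sided. Adjustment was over the 5 relations computed, or over fewer in settings where some could not be run. Neither of these correlations passed. Without the 2 libraries farthest from the median of brlA, r was 0.101 in the low and 0.678 in the high band (permutation p = 0.784 and exact permutation p = 0.225). In the high band r was -0.403 without ΔadmA replicate 1, the library highest in both genes, and 0.607 without control replicate 3.

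pksP lay above its median of 4.07 RPKM in 5 of the 6 libraries with brlA above 10 RPKM, at 4.22 to 9.49 RPKM, and at 2.78 RPKM in the other, ΔadmAΔadmB replicate 1. Its next highest values after ΔadmA replicate 1, 9.20 and 7.80 RPKM, were in ΔadmB replicate 4 and ΔadmAΔadmB replicate 4, where brlA was at 0.476 and 1.17 RPKM. Over all 20 libraries r of brlA and pksP was 0.422 (permutation p = 0.0638, adjusted p = 0.319) and rho 0.376 (permutation p = 0.104, adjusted p = 0.288), which did not pass. Without the 2 libraries farthest from the median of brlA, r was 0.25 (permutation p = 0.319). After centring on strain means r was 0.463 (permutation p = 0.0394, adjusted p = 0.197). With means of the replicate numbers also removed it was 0.703 and passed (permutation p = 0.00057, adjusted p = 0.00171). These p-values ignore the degrees of freedom lost. With no centring, r was 0.616 without ΔadmB replicate 4 alone and passed (permutation p = 0.00505, adjusted p = 0.0252). Without ΔadmA replicate 1 it was 0.244 (permutation p = 0.317). The call thus depended on which library was left out and on whether replicate numbers were taken into account. Within the library set of 12, r was 0.372 (permutation p = 0.24), and within the set of 8 it was 0.673 (exact permutation p = 0.0971).

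For the pigment genes themselves, pksP was above its median in 4 of the 8 libraries of the high band of ayg1. It ran from 2.76 to 9.49 RPKM in that band and from 2.35 to 7.80 RPKM in the low one. In the low band r of ayg1 and pksP was 0.395 (permutation p = 0.201, adjusted p = 0.502) and rho 0.483 (permutation p = 0.115, adjusted p = 0.288). In the high band r was -0.154 (exact permutation p = 0.762, adjusted p = 0.81) and rho 0.143 (exact permutation p = 0.752, adjusted p = 0.752). Without the 2 libraries farthest from the median of ayg1, r was 0.332 and 0.645 in the low and high band (permutation p = 0.338 and exact permutation p = 0.206). No relation between the pigment genes was thus detectable with these libraries, and the sign of r in the high band turned when 2 of them were left out.

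**Figure D2:**
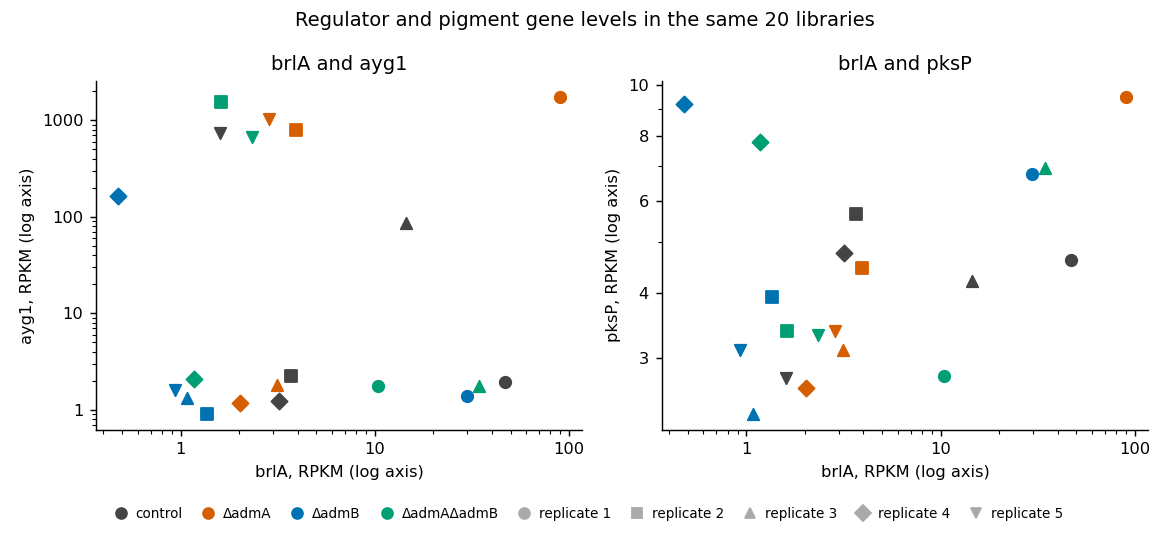
ayg1 (left) and pksP (right) against brlA in the same 20 libraries, all in RPKM on log axes, with colours for strains and symbols for replicate numbers. On the left, 2 libraries lie high on both axes, 4 are high in brlA alone and 6 in ayg1 alone; on the right, ΔadmB replicate 4 and ΔadmAΔadmB replicate 4 lie apart at low brlA and high pksP.

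The strains were compared on the log2(RPKM + 1) scale, which understates changes of genes at low RPKM, with limma, a linear model fitted across all 10652 genes that reached 1 RPKM in at least 5 libraries. All 3 genes passed that filter. A gene was called when its p-value, adjusted by Benjamini-Hochberg over the 10652 genes, was under 0.05. None of the 3 genes was called in any comparison of the deletions. Of all genes tested, 1.08% were called between ΔadmA and the control, 1.77% between ΔadmAΔadmB and ΔadmA, and 0% in each of the other comparisons, so a count of 0 of 3 lies near this background.

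For brlA the difference from the control was -0.16 ± 1.10 (log2 difference ± SE, n = 5 per strain, limma) in ΔadmA, -1.29 in ΔadmB and -0.46 in ΔadmAΔadmB, all with the same SE. The limma adjusted p-values were 0.983, 0.744 and 0.993. The 95% intervals of this fit were -2.47 to 2.15, -3.60 to 1.02 and -2.77 to 1.85. They are wide, and the fit leaves out replicate number, although brlA was high in every replicate 1 library. With a replicate block the limma adjusted p-values were 0.938, 0.374 and 0.872. Intervals under that block are not given here, so those above may be wider than the data require. Between ΔadmAΔadmB and the single deletions brlA differed by -0.30 from ΔadmA and by 0.83 from ΔadmB (limma adjusted p = 0.978 and 0.969). The interaction, the effect of deleting admA in ΔadmB minus its effect in the control, was 0.99 ± 1.55 (limma adjusted p = 0.932).

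ayg1 had the widest intervals, since each strain mixes libraries of both bands. Its differences from the control were 2.52 ± 2.46 in ΔadmA, -1.66 in ΔadmB and 0.82 in ΔadmAΔadmB (log2 difference ± SE, limma adjusted p = 0.826, 0.852 and 0.996). The interval for ΔadmA ran from -2.65 to 7.68, that for ΔadmB from -6.82 to 3.51 and that for ΔadmAΔadmB from -4.35 to 5.99. ΔadmAΔadmB differed by -1.70 from ΔadmA and by 2.48 from ΔadmB (limma adjusted p = 0.906 and 0.955), and the interaction was -0.04 ± 3.47 (limma adjusted p = 0.999).

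pksP was the gene whose strain differences were bounded most closely. Its differences from the control were -0.03 ± 0.34 in ΔadmA, 0.07 in ΔadmB and 0.05 in ΔadmAΔadmB (log2 difference ± SE, limma adjusted p = 0.99, 0.962 and 0.996). The 95% intervals of these lay between -0.76 and 0.79. ΔadmAΔadmB differed by 0.08 from ΔadmA and by -0.02 from ΔadmB (limma adjusted p = 0.984 and 0.999), with an interaction of 0.01 ± 0.49 (limma adjusted p = 0.999). An exact permutation test of the libraries for each of the 15 pairwise strain comparisons of the 3 genes gave two-sided p-values from 0.175 to 0.96, all 0.96 once adjusted over the 15.

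**Figure D3:**
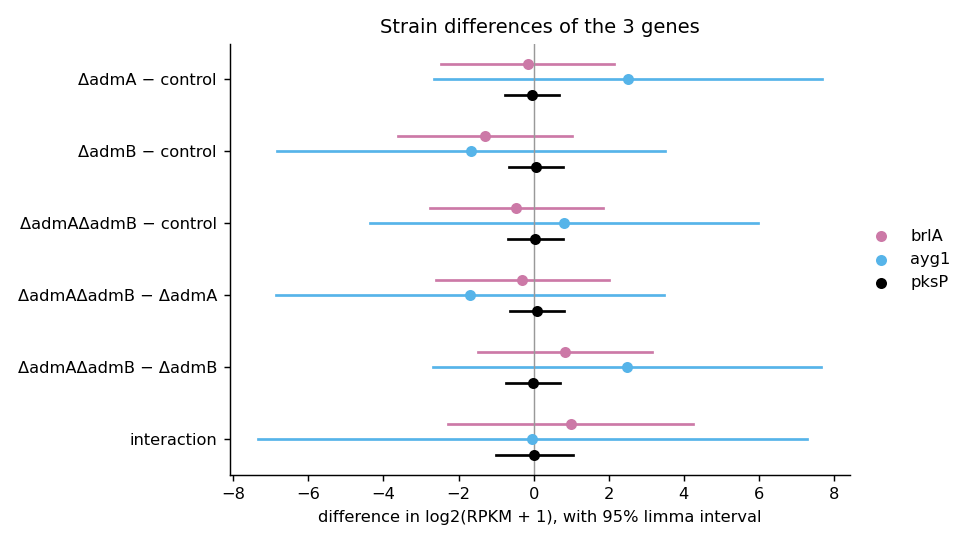
Log2(RPKM + 1) differences between strains, and the interaction, for brlA, ayg1 and pksP, with points for the limma estimates and lines for their 95% intervals. Every interval spans 0, those of ayg1 being the widest and those of pksP the narrowest.

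Other regulators of conidiation, pigment and spore genes were taken from a list of 63 symbols, 18 of which the gene table holds. The 17 that passed the filter include the 3 genes above. The other one, listed as arp2, a symbol used both for a pigment gene and for an actin-related protein, was at 10.28 RPKM in ΔadmB replicate 3, at 0.0864 RPKM in control replicate 1 and at 0 in the rest. None of the 17 was called in any of the 6 comparisons, and the smallest limma adjusted p of the list was between 0.548 and 0.966 per comparison. At an unadjusted limma p under 0.05 the list had 0 genes for ΔadmA, 2 for ΔadmB and 1 for ΔadmAΔadmB against the control, beside 10.3%, 8.11% and 4.87% of all genes tested. For ΔadmAΔadmB against ΔadmA, against ΔadmB and for the interaction it had 0, 1 and 0 genes, beside 10.7%, 5.75% and 6.51% of all genes. Against the control 13 of the 17 estimates were negative in ΔadmA, 13 in ΔadmB and 15 in ΔadmAΔadmB. The medians of the list were -0.16, -0.44 and -0.29 on the log2 scale, and those of all genes tested were at most 0.012 from 0. The share of negative estimates over all genes was not counted. The 3 comparisons share the control libraries, and several listed genes rose and fell together across libraries. The signs are therefore not independent, and their counts are no test.

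The estimates below that unadjusted limit were for vosA, nsdD and flbB. vosA, a velvet-family regulator needed for spore viability, was at 9.51, 9.22, 5.95, 6.13 and 8.13 RPKM in control replicates 1 to 5 and at 10.2, 2.91, 1.32, 2.30 and 6.96 RPKM in those of ΔadmB. nsdD, a GATA factor of sexual development, was at 398, 211, 294, 351 and 276 RPKM in the control and at 369, 117, 161, 184 and 151 RPKM in ΔadmB. In both genes ΔadmB replicate 1, the library of that strain with high brlA, lay within or above the range of the control. The differences were -0.84 ± 0.39 for vosA and -0.72 ± 0.33 for nsdD (log2 difference ± SE, limma adjusted p = 0.611 and 0.606). flbB, which encodes a bZIP factor acting upstream of brlA, was at 1270 to 2007 RPKM in the control and at 1759, 169, 1890, 109.6 and 512 RPKM in ΔadmAΔadmB replicates 1 to 5. Its lower values were in the 3 libraries of ΔadmAΔadmB where brlA was also low. Low brlA did not go with such low flbB in every strain. flbB was at 1648, 1270 and 1337 RPKM in control replicates 2, 4 and 5. In replicates 2 to 5 of ΔadmB it was at 1348, 1619, 1093 and 1504 RPKM, and in those of ΔadmA at 573, 700, 1071 and 608 RPKM. The difference of flbB was -1.63 ± 0.60 from the control and -1.50 from ΔadmB (log2 difference ± SE, limma adjusted p = 0.966 and 0.819).

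Among upstream activators and velvet regulators, several genes were high in the libraries with high brlA. fluG, which acts at the start of the signal for conidiation, had its 6 highest values in the 6 libraries with highest brlA, at 141 to 257 RPKM, and reached 136 RPKM elsewhere. The same held for veA, the velvet regulator that links light to development, with 46.7 to 73.9 RPKM in these 6 libraries and at most 44.7 RPKM in the others. flbD, a Myb-type activator of brlA, shared 5 of its 6 highest libraries, and ran from 43.2 to 142 RPKM there and from 10.9 to 54.01 RPKM elsewhere. nsdD, vosA and catA, the gene of a spore catalase, also shared 5. Of the other 10651 genes tested, 1.86% shared all 6 and 6.58% shared 5, and these counts describe the libraries and are no test. pksP shared 3, as did 14.6% of these genes, and ayg1 shared 1, as did 20.9%.

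Pearson's r with brlA over the 20 libraries, given as a description since the libraries of a strain share their genotype and all genes of a library its depth, was 0.908 for veA, 0.783 for flbD and nsdD, 0.707 for fluG, 0.688 for catA and 0.668 for vosA. It was lower for flbB (0.424), the phytochrome gene fphA (0.411), esdC (0.29) and steA (0.262), the last a homeodomain factor of sexual development. wetA, which acts after brlA in spore maturation, ran only from 8.98 to 16.4 RPKM, with r = 0.107. The developmental regulator medA had r = -0.143 and the histidine kinase gene tcsB r = -0.265. flbA, whose product curbs G-protein signalling of vegetative growth, had the lowest r, -0.344, and ran from 16.7 RPKM in ΔadmAΔadmB replicate 3 to 232 RPKM in ΔadmA replicate 4.

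**Figure D4:**
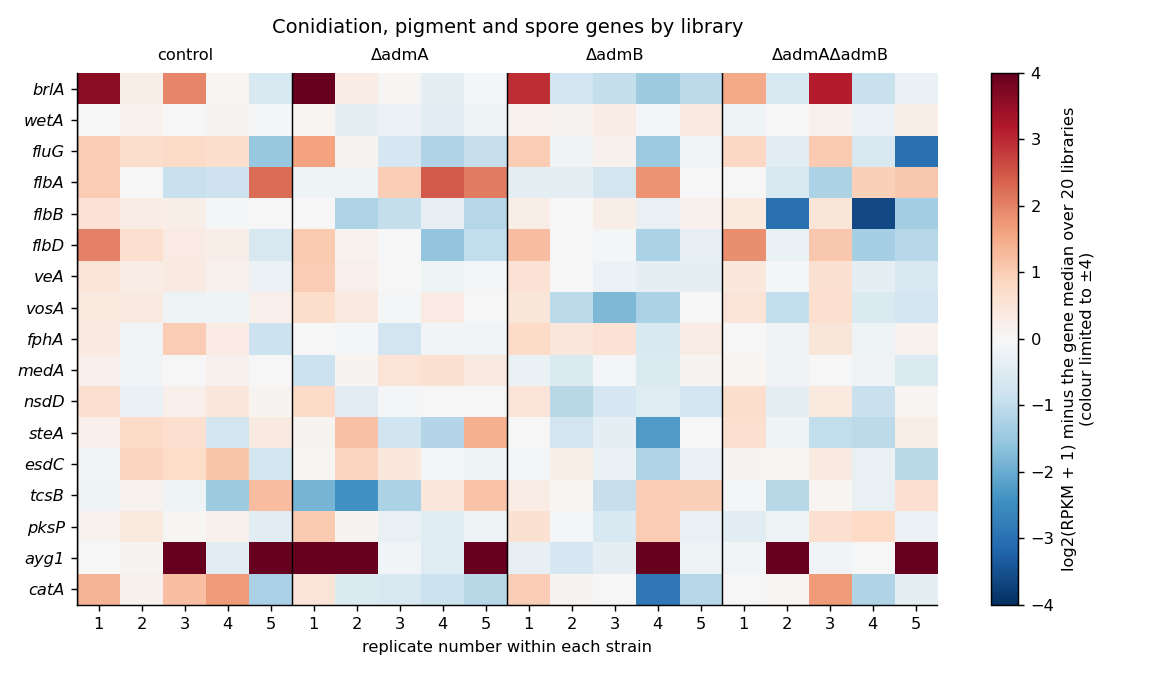
Level of the 17 listed genes in each library as log2(RPKM + 1) minus the median of the gene over the 20 libraries (colours limited to 4 either way), with strains side by side. In the 6 columns with high brlA, fluG, flbD and veA also lie above their medians, in some columns only slightly. The dark red cells of ayg1 lie in 2 of these 6 columns and in 6 of the other 14.

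Over all genes tested, brlA had many close companions. Pearson's r with brlA was at least 0.9 for 64 of the 10651 other genes and at least 0.8 for 234, and it was -0.8 or lower for 105. Highest were AO090026000579 (r = 0.982) and AO090026000582 (r = 0.98), which bear no symbol. AO090026000579 was at 4.17 to 35.85 RPKM in the 6 libraries with high brlA and at 0 to 1.71 RPKM in the other 14, and AO090026000582 at 6.54 to 49.15 and 0 to 2.24 RPKM. Within the 14 libraries with brlA below 10 RPKM, r was 0.824 and 0.713. Both r values were 0.983 or more after centring on strain means, and at least 0.964 within either library set. Both genes were picked for their high r over these same libraries. The values after centring or in parts of the libraries are therefore a description and no separate support.

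Of the 20 genes with the highest r with brlA, the last of which had r = 0.958, none bears a symbol. In the gene order of the table, 8 of the 20 lie within a stretch of 16 neighbouring genes, from AO090026000585 to AO090026000568. The stretch includes both of these genes. It was the densest found by a search over windows of 20 genes. No background over other genes was computed, so the count is a description. Among genes with a symbol, veA came first, followed by exg1 (r = 0.896), exgO (0.854), CweA (0.854) and GbpA (0.841). Within the 14 libraries with brlA below 10 RPKM their r was lower, at 0.669 for veA, 0.765 for exg1, 0.631 for exgO, 0.363 for CweA and 0.616 for GbpA. exgO encodes an exo-1,3-β-glucanase, an enzyme of cell wall glucan, and exg1 is the symbol of such an enzyme in yeast. exg1 was at 51.2 RPKM in ΔadmA replicate 1 and 8.21 RPKM in ΔadmB replicate 4, the libraries with the highest and lowest brlA.

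**Figure D5:**
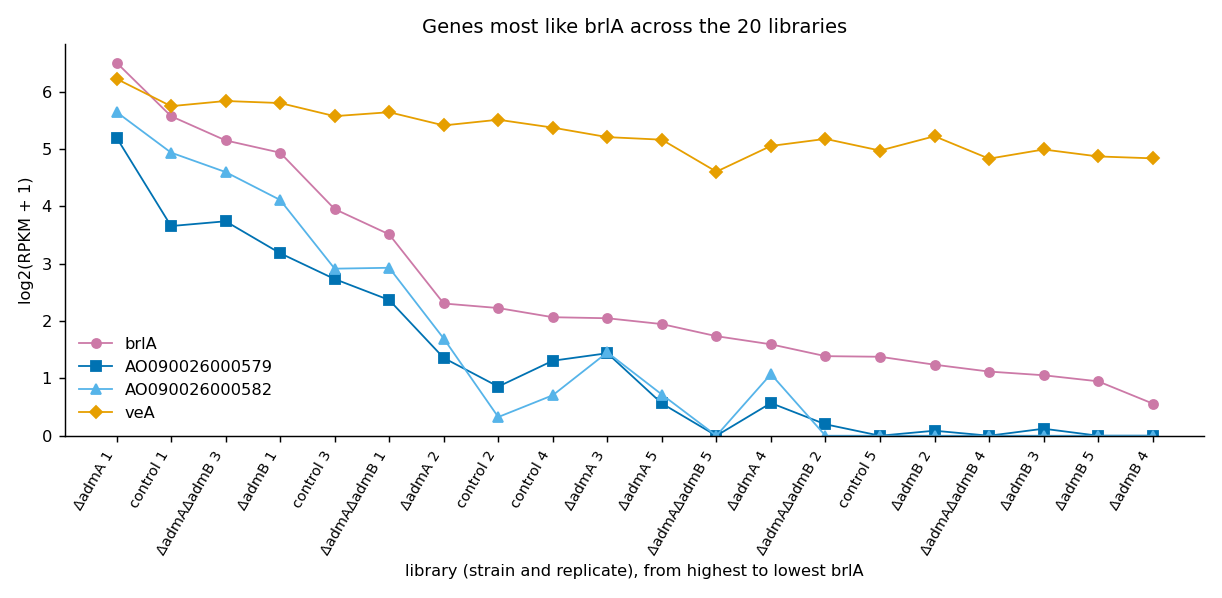
Log2(RPKM + 1) of brlA, AO090026000579, AO090026000582 and veA in the 20 libraries, ordered from highest to lowest brlA, with lines only to guide the eye. The genes without a symbol fall with brlA and reach 0 in many libraries, and veA falls less, from 73.9 RPKM at the left to at most 44.7 RPKM in the 14 libraries with brlA below 10 RPKM.

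The pigment genes had no such companions: no gene reached r = 0.8 with either. How many companions other genes have was not computed, so this is not read as a difference between regulator and pigment genes. For ayg1 an r over all 20 libraries spans its separate bands. For ayg1 the highest were AO090701000337 (r = 0.732), which stayed at 2.752 RPKM or below, and AO090026000455 (r = 0.724), at 15.02 to 1065 RPKM. Among genes with a symbol r was 0.568 for rscE, 0.521 for fmpA, 0.52 for triA, 0.517 for cef1 and 0.503 for hsp88, a heat shock protein gene. For pksP the highest were AO090120000463 (r = 0.796) and AO090009000398 (r = 0.754). Genes with a symbol followed at 0.637 for rpnL, 0.627 for gel6, 0.57 for yvc1, 0.55 for pex6, which serves peroxisomes, and 0.52 for rpt4, a subunit of the proteasome.

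The genes next to the 3 were also compared, 3 on each side in the gene order of the table. Neighbours of brlA had r between -0.707 and 0.181 with it. Among neighbours of ayg1, r with ayg1 was between -0.386 and 0.057 for the 5 that passed the filter. The gene next to ayg1 on one side, AO090005000331, instead had r = 0.887 with brlA and 0.043 with ayg1, at 4.33 RPKM in ΔadmA replicate 1 and at 1.28 RPKM or below in ΔadmB. The gene on the other side of ayg1, AO090005000333, was at 239 RPKM in ΔadmB replicate 1 and at 5.49 RPKM or below in all other libraries. AO090102000546, next to pksP, ran from 0.302 to 129 RPKM, with r = 0.555 with pksP and 0.692 with brlA, and the other neighbours of pksP had r between -0.321 and 0.295 with it.

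The high brlA libraries also stood together over the whole transcriptome. On the first principal component of all genes tested, which held 27.0% of the variance, the 6 libraries scored from -74.0 to -50.4. Control replicate 4, with brlA at 3.19 RPKM, scored -50.6, and the other 13 scored from -28.7 to 94.4. The library with the lowest brlA, ΔadmB replicate 4, had the highest score. What this axis stands for was not tested.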

How the data were processed

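Messenger RNA was measured in 20 libraries, 5 of each of 4 strains. Per the file headers, the deposited values are RPKM, and no read counts were used. The authors used TopHat2 2.0.9 and Cufflinks 2.1.1, with CASAVA 1.8.2 and FastQC 0.10.1, per the submitters' processing notes. Their settings, annotation and genome build were not given in the sources used here. The RefSeq table (assembly ASM18445v3) matched all 12074 identifiers, holds symbols for 714 and served for names and gene order only. Differences came from limma 3.58.1 in R 4.3.3 on log2(RPKM + 1), with 1 mean per strain, all 20 libraries and 10652 genes of at least 1 RPKM in at least 5 libraries; the fit was tested on simulated data. Correlations and permutation tests (scipy 1.17.1) used 100000 permutations, or all of them below 10 libraries. A gap over 1/3 of the log2 range marked separate bands. Genes named are the 3 genes, the listed genes, the 5 genes with a symbol and 2 without that were most like each, and 3 neighbours on each side. The genes and lists were chosen with earlier results of these data known, and the bands, limits and library sets after seeing the values. The library sets came from genes with a mean below 1.5 RPKM: within a set 79.0% to 98.6% of the ratios between libraries lay on a common step, and between sets 8.1% to 30.6%. Alternatives were other pseudocounts, no filter, another scaling, the library sets, a replicate block and leaving out each library.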

Additional observations from a re-analysis of the deposited data

Results flagged for a closer look

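In 3 of the 12 groups of 5 libraries (each gene in each strain), 1 library lay farther from the rest than Dixon's 95% limit. This was on the log2(RPKM + 1) scale. With normally distributed values chance passes that limit in about 1 of 20 groups. That rate need not hold for these values, least of all for the bands of ayg1. brlA was at 90.157 RPKM in ΔadmA replicate 1, with a gap to the next library of 0.855 of the range of that strain on that scale. It was at 29.677 RPKM in ΔadmB replicate 1, with a gap of 0.845. ayg1 was at 162.159 RPKM in ΔadmB replicate 4, with a gap of 0.93. That library was the only member of its strain in the high band, so this flag restates the bands. On the RPKM scale itself 7 of the 12 groups pass that limit: these 3, brlA in the control and ΔadmAΔadmB (gaps of 0.714 and 0.723), ayg1 in the control (0.883) and pksP in ΔadmA (0.733). What sets these libraries apart was not tested.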

How the results depend on the processing

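Of 817 recomputed values, 745 kept their direction and side of the threshold, 70 turned direction and 2 correlations newly passed. Many of the 745 could not turn. The filters, the replicate block, the exact permutation test and the fit of only the strains compared leave a log2 difference as it is. So does leaving out a library of a strain not compared. The 745 thus overstates how far the directions were put to the test. No log2 difference of the 3 genes passed under any alternative (552 values, lowest limma adjusted p 0.374), and no listed gene did under any of 173. Most turned values lay near 0. Within the library set of 12, the difference of pksP was 0.261 for ΔadmA and that of ayg1 -1.388 for ΔadmAΔadmB against the control, and pksP was -0.072 for ΔadmAΔadmB against ΔadmA with an interaction of -0.395. Within the set of 8, where the lone ΔadmB library is taken to vary as those of other strains do, pksP was -0.25 for ΔadmB and brlA 0.521 for ΔadmAΔadmB against the control. There brlA was 1.092 and ayg1 0.46 for ΔadmAΔadmB against ΔadmA, pksP 0.26 against ΔadmB, and the interaction of ayg1 2.64. With the set as a covariate the interactions were 0.348 for ayg1 and -0.003 for pksP. A pseudocount of 0.1 gave 0.139 for ayg1, and one of 5 gave -0.018 for pksP. The cause of these turns was not tested.

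Leaving out 1 library at a time, ranges that crossed 0 were, for ΔadmA against the control, -1.066 to 0.475 for brlA and -0.289 to 0.094 for pksP. For ΔadmB against the control, pksP ran from -0.15 to 0.252. For ΔadmAΔadmB against the control, brlA ran from -1.101 to 0.175, ayg1 from -0.599 to 2.181 and pksP from -0.122 to 0.182. Against ΔadmA, brlA ran from -0.943 to 0.607 and pksP from -0.087 to 0.336, and against ΔadmB, pksP from -0.204 to 0.197. The interactions ran from -1.458 to 1.192 for ayg1 and from -0.169 to 0.268 for pksP. In the other 7 log2 results every such value kept its sign but moved by over 1.5 times: brlA ran from -2.09 to -0.658 and ayg1 from -2.89 to -0.296 for ΔadmB against the control, ayg1 from 1.474 to 3.889 for ΔadmA against the control and from -3.116 to -0.655 for ΔadmAΔadmB against ΔadmA. Against ΔadmB, brlA ran from 0.191 to 1.631 and ayg1 from 1.059 to 3.709, and the interaction of brlA from 0.35 to 1.899. Of the correlations, r of brlA and pksP ran from 0.244 to 0.616, passing only without ΔadmB replicate 4. In the high band of ayg1, r with brlA ran from -0.403 to 0.607 and with pksP from -0.598 to 0.215, or 0.645 without the 2 farthest libraries.

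Same-numbered libraries of a pair of strains correlated between -0.22 and 0.52, not above 0.1 in every pair. The numbers were therefore not taken as a pairing in the main results. Yet 4 to 7 of 10 libraries per pair of strains correlated best with their own number, more than random numbering would give on average. What libraries of the same number share was not tested, and the main strain comparisons leave it out. Under a replicate block no gene of the 3 or of the list was called. The correlation of brlA and pksP was 0.703 under strain means with the replicate block (permutation p = 0.00057, adjusted p = 0.00171, which ignore the degrees of freedom lost). That of brlA and ayg1 was then -0.229 in the low band, and -0.146 in the high band after centring on strain means; libraries alone in their strain or number were left out. The block could not be fitted in the high band, where fewer than 6 libraries share both a strain and a number with others, and library sets were run only where at least 6 libraries of a band fell in 1 set. Depth limits brlA most where it rests on few reads.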
